A study of Caenorhabditis elegans with 4 samples.

Results

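In L3 larvae of Caenorhabditis elegans, 422 of the 2546 regions bound by ELT-1::GFP in the combined list lay on chromosome II. They are every row of that list placed on II, with identical intervals counted once, which took 424 rows to 422 regions. The list came from chromatin immunoprecipitation followed by sequencing (ChIP-seq) of hermaphrodites of strain OP354. These worms carry the unc119(ed3) allele and the transgene wgIs354, in which elt-1 is fused to TY1, EGFP and FLAG tags beside an unc119 marker. They were grown at 20 °C and fixed with 2% formaldehyde. The labels list 2 ChIP samples, precipitated with an antibody against GFP, and 2 input samples, chromatin of the same strain set aside before precipitation. The region lists of the ChIP samples, replicates 1 and 2, and the combined list are used here. The transgene was delivered by bombardment, per the labels, and chromatin came from whole worms, so all cell types are measured together.

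ELT-1 is a GATA factor, a zinc finger protein that binds DNA at WGATAR sequences. It is best known as the factor that sets embryonic cells on the path to epidermis, and in larvae it helps to keep the seam cells, the stem-like cells of the epidermis, from fusing with their neighbours. Chromosome II holds genes of that tissue, among them lin-26, which keeps epidermal cells in their fate, the collagen genes rol-6, sqt-1, bli-1, bli-2, dpy-2 and dpy-10 of the cuticle, and lin-29, a regulator of the larval-to-adult switch. The coordinates are those of WormBase WS220 and no sequence or annotation of that build was used, so regions are given by position and were not assigned to genes or searched for motifs.

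The combined list gives every region the same score, so regions are ordered by the number in their name, where 1 is the best. The number is the authors' and its meaning is not stated. Each replicate list is numbered in the same way. Depth is unknown because the lists hold no read counts, and the counting error of a region's value therefore cannot be given. Whether replicates 1 and 2 were separate cultures is not stated in the labels. Intervals and exact tests below take regions as units, which are not independent replicates, and so describe these lists alone.

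The best region on II, at 6176557 to 6176897, was number 8 when the replicates were combined, and number 7 in replicate 1 and 16 in replicate 2. The next, at 10563386 to 10563632, had numbers 22, 31 and 25 for the combined list and replicates 1 and 2. The third, at 8717575 to 8717872, had 24, 41 and 23. All 3 lay alone in the middle of the chromosome, with no other region midpoint within 2 kb. Number 25 lay toward the right end, at 12239425 to 12239736, and was 34 and 32 in the replicates. Beyond it, 13638527 to 13638857 was number 29 and ranked 35 and 40. These first 5 were all within the best 41 regions of each replicate. They were 247 to 341 bp wide, above the median of 188 bp for the regions of II narrower than the commonest width.

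Another 5 regions made up the 10 best of the chromosome. In the combined list, 9644962 to 9645190 was number 39, 7801850 to 7802172 was 50 and 6822375 to 6822605 was 53. The next 2, 8561274 to 8561480 and 1188208 to 1188415, were 69 and 71. The last of these was the best region of the left arm. The region at 8561274 was placed differently by the replicates, as number 154 in replicate 1 and 61 in replicate 2.

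Places 11 to 15 on II were taken by 15213721 to 15213967 (number 72), 8912535 to 8912777 (74), 4941489 to 4941711 (78), 9064454 to 9064688 (83) and 9605989 to 9606202 (97). The first of these lay in the last, partial window of 1 Mb on II, where it was the one region of the best 500. Places 16 to 20 were 6821310 to 6821503 (number 111), 12982008 to 12982215 (116), 1320538 to 1320741 (118), 5282796 to 5282989 (129) and 10959158 to 10959429 (131). Of the 20, 14 lay in the central 60% of the chromosome and 8 had a neighbour within 2 kb. Over all regions on II these shares were 74.6% and 29.6%. Replicate 1 gave them numbers of 7 to 249 and replicate 2 gave them 16 to 449, and 10 had the better number in each. The midpoints of their replicate regions lay 0.5 to 48.5 bp apart. The combined list rests on the same replicates, so this closeness is not independent evidence of binding.

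Chromosome II held 15 of the best 100 regions, 86 of the best 500 and 16.6% of all regions, on 15.2% of the nuclear length. Its median number was 1325.5, against 1264.5 elsewhere. In the better-numbered 50% of the list stood 201 of the 422 regions (47.6%, 95% Wilson interval 42.9 to 52.4), compared with 50.5% of the other 2124. The odds ratio was 0.893 (95% interval 0.720 to 1.11; two-sided Fisher's exact p = 0.311, adjusted p = 0.400 over 9 comparisons). No difference in rank between II and the rest was therefore detected.

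Most regions on II were found in both replicates. By an overlap of at least 1 bp, 406 of 422 (96.2%, Wilson interval 93.9 to 97.7) had a region in both, where the share over the whole list was 97.5%. Against the other chromosomes the odds ratio was 0.574 (0.316 to 1.10; Fisher's exact p = 0.0836, adjusted p = 0.251). All 16 remaining regions on II had a region in replicate 1 and none in replicate 2. Elsewhere 46 regions were found in replicate 1 alone and 1 in replicate 2 alone. Stricter rules of overlap lowered the share found in both. Where the overlap had to cover 50% of both regions, it was 83.2% on II and 86.4% elsewhere (odds ratio 0.776, Fisher's exact adjusted p = 0.275). Where midpoints had to lie within 200 bp, it was 94.1% and 96.3% (odds ratio 0.606, Fisher's exact adjusted p = 0.186).

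The 16 regions had numbers from 1032 to 2527, and 14 of them were beyond the median number of II. The best, 10872516 to 10872899, was number 630 in replicate 1, and the nearest replicate 2 midpoint lay 1302 bp away under number 16718. The second, 5330142 to 5330525, was number 524 in replicate 1, with a replicate 2 midpoint 443 bp away. At 8439991 to 8440374 (number 2255) the nearest replicate 2 region, 703 bp away, was itself well placed at number 609. For the 16, the distance to the nearest replicate 2 midpoint ran from 443 to 4917 bp. None of the 16 was among the 20 best of II, and 6 had another combined region within 2 kb.

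A stricter test of support asked for a place among the 2546 best regions of each replicate. On II 244 regions (57.8%, Wilson interval 53.1 to 62.4) met it in both replicates, where the share over the whole list was 60.3% (Fisher's exact test of II against the rest, odds ratio 0.885, 0.712 to 1.10, p = 0.276, adjusted p = 0.400). Replicate 1 held 353 (83.6%) of the II regions among its best and replicate 2 held 301 (71.3%), beside 84.8% and 73.0% of the regions elsewhere. Of the 422 regions on II, 109 were among the best of replicate 1 only, 57 among the best of replicate 2 only and 12 among the best of neither. Of the other 2124 regions these counts were 511, 260 and 62. The 244 had a median number of 769 and a median distance between replicate midpoints of 34 bp. For the 178 others these were 2038 and 55.5 bp. The combined list rests on the same replicates, so neither the support counted here nor the better numbers of the 244 are independent evidence.

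**Figure D1:**
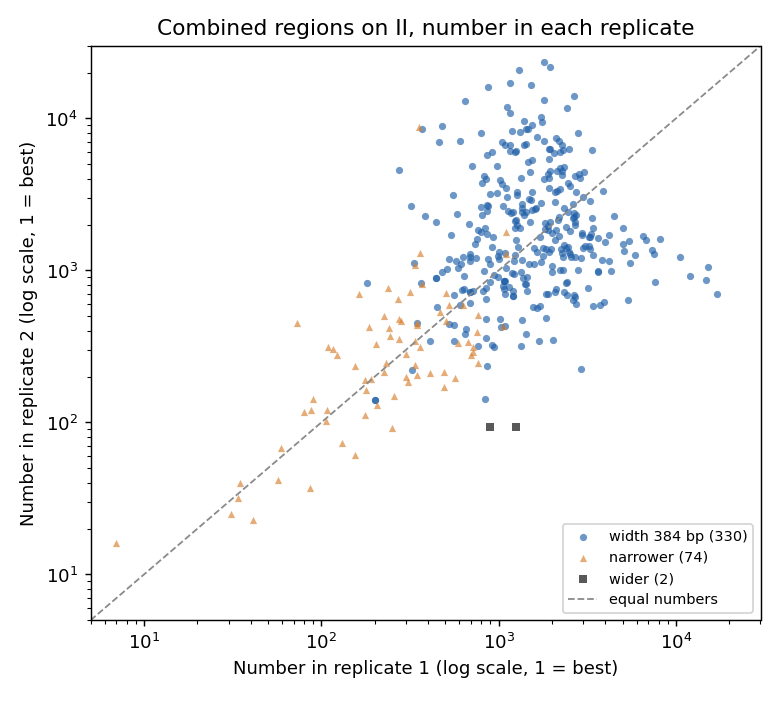
Number of each combined region on II in replicate 1 (horizontal) and replicate 2 (vertical), both on log scales with 1 the best, for the 406 regions found in both; triangles are regions narrower than 384 bp, squares the 2 wider ones, and the dashed line marks equal numbers. Most of the 74 narrow regions gather at the lower left, but 1 of them, with numbers 356 and 8776, lies furthest from the line of all the points.

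The replicates ordered the regions of II moderately alike. Across 400 pairs of regions that were each other's best overlap and lay on a combined region, Spearman's rho between the replicate numbers was 0.449, and on the other chromosomes it ran from 0.371 on V to 0.498 on X. The pairs share their libraries, and the source field names a method that compares ranks between replicates, so rho is a description. Of the 406 regions found in both, 212 (52.2%) had the better number in replicate 1 and 194 in replicate 2, where 54.7% elsewhere were better in replicate 1. For 48.5% the numbers were within 2-fold of each other, beside 50.3% elsewhere. The furthest apart by fold was 10426812 to 10426914, number 356 in replicate 1 and 8776 in replicate 2. In the opposite direction, 6706705 to 6707088 was number 17108 and 695.

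Some well-numbered replicate regions lay outside the combined list. On II the 3 best regions of replicate 2 outside the combined list began with 4912120 to 4912332, number 168, which overlapped replicate 1 region 1084 at 4911846 to 4912221. Neither lay on a combined region. The others were 9170817 to 9171200 (number 646) and 11020919 to 11021302 (number 671). The first had region 10150 as its best overlap in replicate 1. The second overlapped number 362 of replicate 1, which did lie on a combined region. For replicate 1 the 3 best outside the list were 9170271 to 9170646 (number 1028), 4911846 to 4912221 (1084) and 10555401 to 10555776 (1552). The pair that starts at 4911846 and 4912120 thus stood in both sets. The regions that start at 9170271 and 9170817 lay side by side without overlap. In all, 82 of the 436 best regions of replicate 1 on II and 129 of the 431 best of replicate 2 lay outside the combined list. The shares inside it were 81.2% and 70.1% on II, beside 85.5% and 73.6% on the other chromosomes.

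Width separated the regions of II by rank, as it did those of the other chromosomes. There were 346 regions at exactly 384 bp, the commonest width, 74 narrower and 2 wider. The narrow share was 17.5% (Wilson interval 14.2 to 21.5), where the whole list had 16.1% (Fisher's exact test of II against the rest, odds ratio 1.13, 0.843 to 1.49, p = 0.386, adjusted p = 0.434). The narrow regions were 96 to 341 bp wide, with a median of 188 bp. Their median number was 248, against 1516 for regions of 384 bp. In the best 20% of the list 79.3% of the regions on II and 69.2% of those elsewhere were narrow. In the last 20% these shares were 0% and 0.242%. Of the 74 narrow regions on II, 73 were among the best of both replicates, as were 169 (48.8%) of the 346. Replicate midpoints lay a median of 23.5 bp apart in narrow regions and 45 bp in those of 384 bp. Width and number come from the same calling of regions, so these are not separate measurements.

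**Figure D2:**
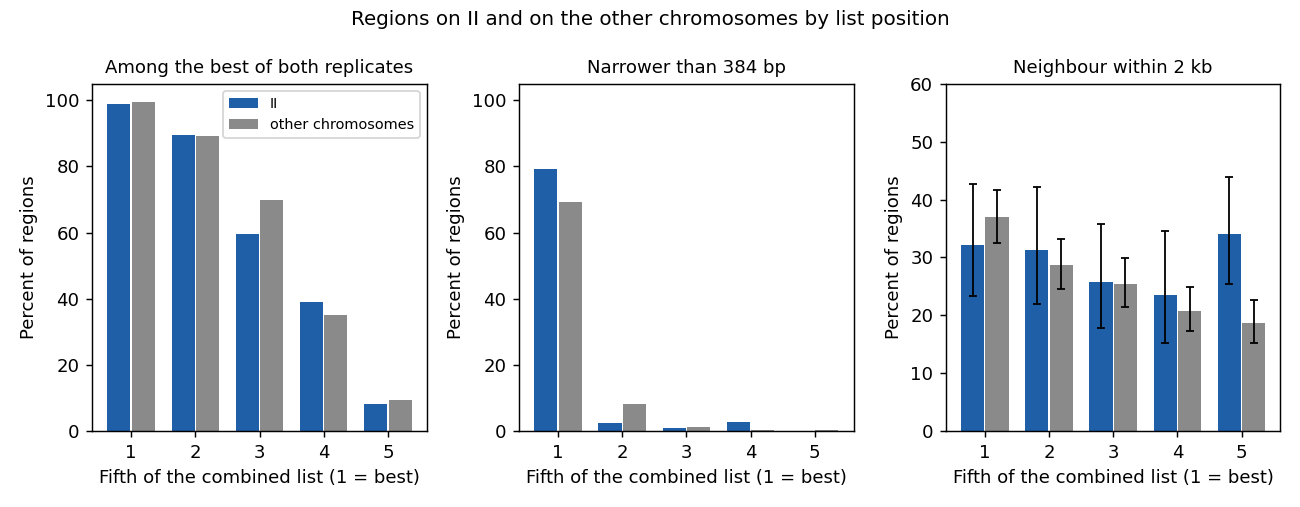
Percent of combined regions on II (blue) and on the other chromosomes (grey) in each 20% of the combined list, by number, that were among the 2546 best of both replicates (left), were narrower than 384 bp (middle) and had another midpoint within 2 kb (right, with 95% Wilson intervals). On II the first panel falls from 98.9% to 8.25%, 69 of the 74 narrow regions are in the best part, and 34.0% of the regions in the last 20% have a neighbour.

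The 2 wide regions were the only repeated intervals among the nuclear regions of the combined list, and they overlapped each other. One spanned 8418717 to 8420076 (1360 bp) under numbers 785 and 1320. The other spanned 8420006 to 8421604 (1599 bp) under numbers 523 and 618. Replicate 2 listed 8418754 to 8419971 in 2 rows (numbers 186 and 498) and 8420039 to 8421544 in 4 rows (numbers 94, 323, 2372 and 13641). These were also its only repeated nuclear intervals. Replicate 1 had 4 separate regions here, 202 to 477 bp wide, with numbers 897, 2036, 1251 and 3921. No other nuclear region of the combined list or of replicate 2 was wider than 2 times the commonest width, and none of replicate 1 was. What the repetition records is not stated, and its cause was not tested.

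**Figure D3:**
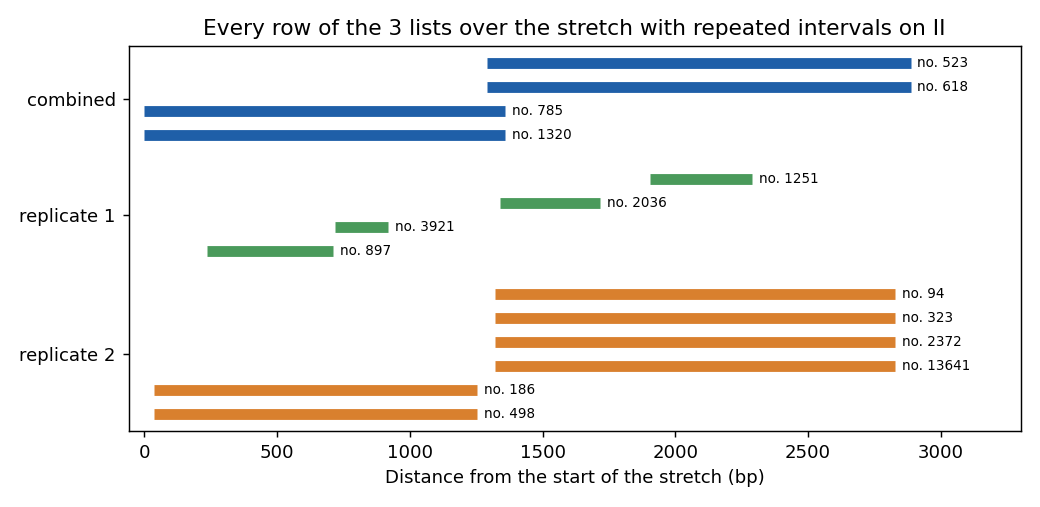
Each row of the combined list (blue), replicate 1 (green) and replicate 2 (orange) over the stretch from 8418717 to 8421604 on II, drawn as a bar against the distance in bp from its start and marked with its number. The combined list and replicate 2 repeat the same wide intervals, whereas replicate 1 has 4 short regions.

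The second question was how the regions lie along the chromosome. II held 27.6 regions per Mb over 15.3 Mb. Relative to all other chromosomes together its density was 1.11 (95% interval 0.993 to 1.23; two-sided exact binomial p = 0.0646, adjusted p = 0.251). X was the densest chromosome at 33.5 per Mb. Set against the other 4 autosomes alone, a comparison added after the density of X was known, II was denser by 1.21-fold (1.09 to 1.35; exact binomial p = 5.21e-04, adjusted p = 0.00234), with 27.6 against 22.8 regions per Mb. The sparser autosomes were IV and V, at 20.8 and 20.3 per Mb. The ratio was 1.34 against them and 1.08 against I and III, at 24.6 and 26.8 per Mb. These pairs of chromosomes were picked by their densities, so both ratios are descriptions with no test. In the better-numbered 50% of the list the ratio to the other autosomes was 1.15 (0.982 to 1.35; exact binomial p = 0.0753, adjusted p = 0.251). The whole replicate lists gave 1.08 (1.04 to 1.11) in replicate 1 and 1.02 (0.990 to 1.06) in replicate 2.

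Within II the centre was the denser part. An arm was taken as the outer 20% of the length at either end, or 3.05 Mb. The centre held 315 regions, or 34.4 per Mb, and the arms 107, or 17.5 per Mb. The ratio was 1.96 (1.57 to 2.47; exact binomial p = 2.90e-10, adjusted p = 2.61e-09). On the other autosomes it ran from 1.73 on I to 2.97 on V, and the centre held 74.6% of the II regions against 75.4% of theirs (Fisher's exact test, odds ratio 0.959, 0.744 to 1.24, p = 0.750, adjusted p = 0.750). Regions of the centre had a median number of 1292, and those of the left and right arms 1399.5 and 1499. The left arm had 46 regions and the right arm 61, a ratio of 0.754 (0.503 to 1.12; exact binomial p = 0.176, adjusted p = 0.316). With arms of 25% the left arm was sparser, at a ratio of 0.586 (0.407 to 0.838; exact binomial adjusted p = 0.0124).

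**Figure D4:**
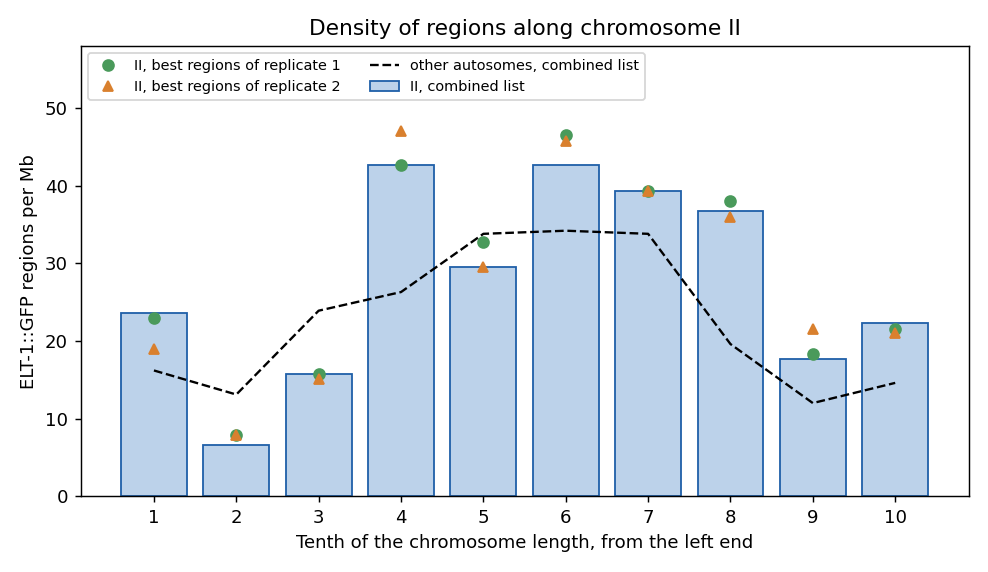
Regions per Mb in each of 10 equal parts of II, from its left end, in the combined list (bars) and among the 2546 best regions of replicate 1 (circles) and replicate 2 (triangles); the dashed line is the combined list on the other 4 autosomes. The bars fall to 6.55 per Mb in part 2 and reach 42.6 in parts 4 and 6. The markers of both replicates, on which the combined list rests, are also lowest in part 2.

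Arms and centre describe II only roughly. Over 10 equal parts of its length, density was 23.6 regions per Mb at the left end, fell to 6.55 in part 2 and reached 42.6 in part 4. The other autosomes had 13.1 and 26.3 per Mb in the same parts. II then dipped to 29.5 in part 5, the only one of parts 4 to 10 in which it was below them. In part 8 it had 36.7 against 19.6 per Mb. The best regions of each replicate gave the same outline, with 7.86 per Mb in part 2 for both and 42.6 and 47.1 in part 4. In windows of 1 Mb the rise fell at 4 Mb, between a window of 11 regions and one of 32, and the drop at 12 Mb, between windows of 43 and 16. The windows between ranged from 24 to 46 regions. With limits set there after the values were seen, the first 4 Mb held 14.2 regions per Mb, the stretch from 4 to 12 Mb 37.6, and the rest 19.5. For the whole lists the middle stretch was less distinct, with 224, 335 and 278 regions per Mb in replicate 1 and 215, 292 and 261 in replicate 2.

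The sparsest part was 1523520 to 2734738, where 2 combined regions stood in 1.21 Mb. One was 2058979 to 2059362 (number 1444), and the other, 2436850 to 2437054, was well placed at number 244, with 339 and 238 in the replicates. Between them and around them lay the 3 longest stretches of II without a combined region, of 535, 377 and 298 kb. The longest was only the fourth longest of the genome, and V had one of 766 kb. The replicates did have regions here, 184 and 201, or 152 and 166 per Mb. That was below their averages on II of 294 and 265 per Mb, and 2 and 5 of them were among the best of their lists.

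The third question was how regions on II group together. The median step from one midpoint to the next was 14322 bp, but 125 regions (29.6%, Wilson interval 25.5 to 34.1) had another within 2 kb, where the share over the whole list was 26.7%. Compared with the rest the odds ratio was 1.19 (0.937 to 1.51; Fisher's exact p = 0.148, adjusted p = 0.316). Joining such neighbours left 351 places, of which 297 were single regions, 44 were pairs, 5 held 3 regions, 4 held 4 and 1 held 6. Regions with and without a neighbour had similar median numbers, 1295 and 1341.

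The list was also divided by number into 5 parts, after the data were seen, and 1 part passed the test of II against the rest. Whether the parts differed from each other was not tested. In the last 20% of the list, 33 of 97 regions on II (34.0%) had a neighbour, against 77 of 413 elsewhere (18.6%; Fisher's exact test, odds ratio 2.25, 1.33 to 3.75, p = 0.00151, adjusted p = 0.00754 over the 5 parts). Regions that neighbour each other were both counted, so the units of this test are linked and its p-value may be too small. For 11 of the 33 the nearest neighbour was itself in the last 20%, and for 9 a region of the best 500 lay within 2 kb. Number 2532, at 13640144, stood 1644 bp from number 29, and number 2243, at 5281371, stood 1330 bp from number 129. Among the replicates' own best regions the last 20% gave 24.0% against 21.2% in replicate 1 and 20.7% against 22.0% in replicate 2.

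A single stretch of II held the largest group. The 6 regions from 6827322 to 6833315 began 3091 bp after a group of 4 from 6821310 to 6824230, so that 10 regions lay between 6821310 and 6833315. When midpoints up to 5 kb apart were joined, a setting added after the data were seen, the group grew to 13 regions from 6821310 to 6843074, over 21.8 kb. That was the most of any group in the genome under this setting, ahead of 12 regions over 12.1 kb on IV. The group on IV ranked far better, with a median number of 94.0 against 978 and 10 regions in the best 500 against 5. Every one of the 13 had a region in both replicates, and 10 were among the best of both. Over the whole list these shares were 97.5% and 60.3%.

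The ranks within this group were uneven. Its left end held its 2 best members, 6822375 to 6822605 (number 53, and 59 and 68 in the replicates) and 6821310 to 6821503 (number 111). The second of these was 73 and 449 in the replicates. Beside the 2 lay 6823347 to 6823460 (number 266). Number 1520, with 1045 and 3715 in the replicates, closed the group of 4 at 6823847 to 6824230. The group of 6 ended with its best member, 6833083 to 6833315, number 145 and 178 and 164 in the replicates. Before it stood 6827322 to 6827705 (1292), 6829086 to 6829469 (978), 6830012 to 6830395 (1147), 6830791 to 6831174 (2481) and 6831610 to 6831993 (2270). The last 2 also differed between the replicates, at 2789 and 8015 and at 2043 and 5926. Wider joining added 6835478 to 6835861 (668), 6838875 to 6839258 (1371) and 6842904 to 6843074 (343). The 5 narrow regions of the group were its 5 best.

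**Figure D5:**
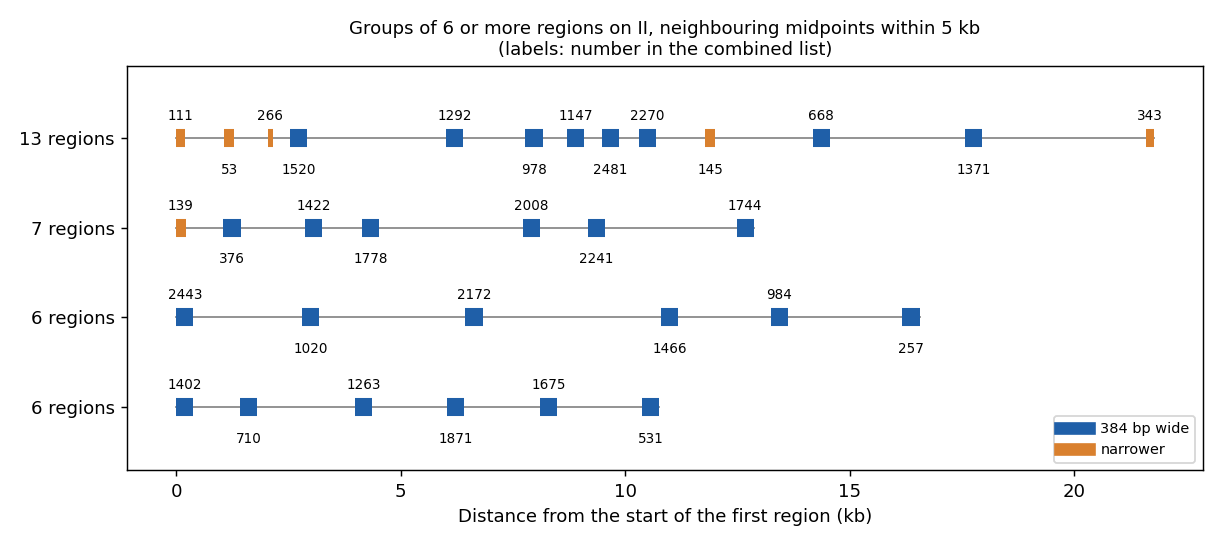
Groups of 6 or more regions on II whose neighbouring midpoints lie within 5 kb, drawn to scale against the distance in kb from the start of each group; blue bars are regions of 384 bp, orange bars narrower ones, and labels give the number in the combined list. The top group has 13 regions over 21.8 kb, with its best member, number 53, near the left end.

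The other groups of 4 had no member among the 20 best of II. From 4759926 to 4764446 the numbers rose along the stretch, from 139 at 4759926 to 4760138 through 376 at 4760975 to 4761358 and 1422 at 4762797 to 4763180 to 1778 at 4764063 to 4764446. All 4 were among the best of both replicates, where the share over the whole list was 60.3%. With joining up to 5 kb this group had 7 regions, of which 4769086 to 4769469 was number 14777 in replicate 1 and 861 in replicate 2. From 178318 to 183493, near the left end, stood 178318 to 178701 (1467), 180081 to 180464 (1695), 181142 to 181525 (1517) and 183110 to 183493 (2119). From 8127056 to 8129783 stood 8127056 to 8127439 (1112), 8128205 to 8128588 (650), 8128435 to 8128818 (2279) and 8129400 to 8129783 (1828). The middle 2 overlapped each other and shared their best replicate regions, numbers 443 and 888, although the second of them also overlapped a further region in each replicate. In all, 6 of the regions on II overlapped the next one.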

How the data were processed

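The data were 3 deposited lists of binding regions in WormBase WS220 coordinates, per the file headers: 1 for each of 2 ChIP samples and 1 combined. The source field names SPP, a peak caller, with the irreproducible discovery rate (IDR), a measure of how alike regions rank between replicates. Not given in the sources used here are the aligner, versions, thresholds, use of input and rule of combination. The score is the authors', of unstated meaning, capped in the replicate lists and constant in the combined list, so the number in each region name served as rank. Mitochondrial regions were left out and identical intervals counted once, under their best number. Chromosome length was the largest coordinate in any list. Regions overlapped if they shared at least 1 bp. Where several overlapped, the best number was taken. The best of a replicate are its 2546 best nuclear regions.

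Shares on II and elsewhere were compared with Fisher's exact test and densities with an exact binomial test, two-sided, with Benjamini-Hochberg adjustment over 9 comparisons (threshold 0.05). Odds ratios and ratios have exact 95% intervals, conditional on totals. Alternatives, each with its own adjustment in place of the main value, are given at the end. The named regions are the 20 best on II, groups of 4 or more, repeated or widest intervals, regions found in 1 replicate (summarised), and the 3 best of each replicate outside the combined list. The 2 with the largest fold between replicate numbers, the 2 of the sparse stretch, the last-20% examples and the further members of the 5 kb groups were picked with their values in view. The members and lists were chosen with earlier results of these data known. Functions were tested on simulated lists. Tests used scipy 1.17.1 with numpy 2.4.6, tables pandas 2.3.3 and figures matplotlib 3.10.9, under Python 3.11.15.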

Additional observations from a re-analysis of the deposited data

How the results depend on the processing

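The denser centre of II passed its test under all 5 alternatives, with ratios from 1.82 (neighbours merged) to 2.18 (better-numbered 50%). The density of II against all other chromosomes was 1.15 and 1.13 with replicate 2 and replicate 1 left out (exact binomial adjusted p = 0.0396 and 0.0858). It was 1.04 in the better-numbered 50% and 1.08 with merged neighbours, below the main value of 1.11 (exact binomial adjusted p = 0.658 and 0.356). Against the other autosomes it was 1.21, with merged neighbours 1.18, and 1.26 and 1.23 with replicate 2 and 1 left out. Against IV and V, picked for their low density, it was 1.34, and in the whole list of replicate 1 it was 1.08. Values that were not past the threshold changed direction in places: the rank odds ratio was 1.05 for the best 20% and ran from 0.967 to 1.06 with a replicate left out, the neighbour odds ratio was 0.930 at 1 kb and 0.885 in the better-numbered 50%, and the centre odds ratio against the other autosomes was 1.02 with arms of 25% and 1.05 in the better-numbered 50%. At 5 kb the neighbour odds ratio was 1.27 (1.03 to 1.58, Fisher's exact adjusted p = 0.111). With replicate 2 and replicate 1 left out it was 1.13 and 1.19. The left-to-right ratio was 0.586 with arms of 25%, where only the limits were moved. With arms of 20% it was 0.770 and 0.631 with replicate 2 and replicate 1 left out (exact binomial adjusted p = 0.379 and 0.113). The excess of neighbours in the last 20% fell to 1.42 at 1 kb and 1.77 at 5 kb (Fisher's exact adjusted p = 0.540 and 0.0693), and was 1.17 and 0.922 with replicate 2 and 1 left out. The share of II regions among the best of both replicates was 46.2% with an overlap of 50% of both regions. It was 56.6% with midpoints within 200 bp and 80.3% with 2 times as many best regions. Elsewhere these shares were 49.9%, 59.5% and 83.9% (Fisher's exact adjusted p = 0.274, 0.400 and 0.188). The correlation of replicate numbers was 0.552 over all pairs on II. The cause of these changes was not tested. The planned motif and gene location tests were not run, since they need a WS220 sequence or annotation. No paired analysis was possible because no list of the input samples was analysed here. With read depth unknown, a region missing from a list cannot be called unbound.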
